A study of Drosophila melanogaster with 4 samples.

Results

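The proneural genes achaete (ac), scute (sc), lethal of scute (l(1)sc), asense (ase), atonal (ato), absent MD neurons and olfactory sensilla (amos) and target of Poxn (tap) were located in the dm6 genome and examined, with 100 kb on both sides of each, in chromatin contact maps of 2 Drosophila melanogaster cell lines. They are 7 of the 13945 protein-coding genes annotated on the main chromosome arms, and were taken by name and not by any measured value. Earlier results of these data were known when they were chosen. The overlapping windows of the 4 achaete-scute genes were joined, which left 4 loci and 897.3 kb of sequence.

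Proneural genes encode transcription factors of the basic helix-loop-helix (bHLH) class. They give ectodermal cells the competence to become neural precursors, bind E-box DNA as heterodimers with the broadly expressed partner Daughterless (da), and are held in check by Notch signalling between neighbouring cells. The achaete-scute genes ac and sc act in the precursors of external bristles, l(1)sc acts in embryonic neuroblasts, and ase is switched on in neural precursors after they are chosen. In the atonal family, ato is needed for stretch-sensing chordotonal organs and the R8 photoreceptor, amos for olfactory sensilla and for multidendritic neurons, and tap is the fly member closest to the vertebrate neurogenins. The regulatory elements of the achaete-scute genes are known to be spread over a long stretch of the X chromosome and to be shared among its genes.

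In situ Hi-C, which counts ligation contacts between DpnII restriction fragments in intact nuclei, was performed in untreated BG3 cells, which are male and derive from the nervous system of larvae, and in Kc167 cells, a female line of embryonic origin. Each line had 2 biological replicates, which the authors merged into 1 map before calling topologically associating domains (TADs, stretches of chromatin with more contacts within than across their ends) and loops (pairs of 2 kb bins with more contacts than their surroundings). Each line is 1 line, and no value per replicate exists in these lists, so differences between BG3 and Kc167 below are descriptions without a test. Tissue of origin, sex and the history of each line cannot be told apart here, and the lists hold no expression values with which marker genes could be checked. On all chromosomes the BG3 list had 2253 TADs and the Kc167 list 2506, and 4 TADs on the Y chromosome appeared in the BG3 list and 0 in the Kc167 list. Per the methods, the BG3 map rests on fewer reads. The authors also down-sampled Kc167 to about the BG3 number of reads, and report similar distances between TAD borders with either Kc167 set. The part of that depth in the differences below was not tested.

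All 7 genes have 1 exon. In the achaete-scute complex, ac (FBgn0000022) lies at X:370031-370947, sc (FBgn0004170) at X:396060-397497, l(1)sc (FBgn0002561) at X:409721-410817 and ase (FBgn0000137) at X:460747-463176, all on the plus strand. The 4 genes stand within the span of CG32816 (FBgn0052816, X:316576-470726), a gene of 154.2 kb on the minus strand. In the atonal family, ato (FBgn0010433) lies at 3R:8278052-8279274 and tap (FBgn0015550) at 3L:17359682-17361811, both on the plus strand, and amos (FBgn0003270) at 2L:18596136-18596921 on the minus strand.

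The promoter stretches of 5 members are shown because ato, amos and tap have their 5′ ends in loop anchors, and because ac and sc carry the E-boxes and the GA repeats described below. Each is the 250 bases before the annotated 5′ end in the RefSeq dm6 assembly, read 5′ to 3′ along the gene's strand. Capitals mark the E-boxes CAGCTG and CAGGTG and CATATG, the TATA box TATAAA and the GAGA element GAGAG, each searched on both strands. Other forms of the E-box, such as the CACGTG in the ato and amos stretches, were not searched and are not marked.
ac (X:369781-370030, plus strand): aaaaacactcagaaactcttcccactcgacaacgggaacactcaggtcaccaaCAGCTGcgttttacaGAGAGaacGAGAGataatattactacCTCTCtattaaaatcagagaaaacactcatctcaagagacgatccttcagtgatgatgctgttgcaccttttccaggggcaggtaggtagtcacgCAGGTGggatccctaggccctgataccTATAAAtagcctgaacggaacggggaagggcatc
sc (X:395810-396059, plus strand): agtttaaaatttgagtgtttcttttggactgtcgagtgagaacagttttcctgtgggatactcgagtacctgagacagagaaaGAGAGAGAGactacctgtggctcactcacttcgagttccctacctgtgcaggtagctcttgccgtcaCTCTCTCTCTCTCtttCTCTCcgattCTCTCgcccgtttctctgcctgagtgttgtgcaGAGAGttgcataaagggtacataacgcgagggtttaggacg
ato (3R:8277802-8278051, plus strand): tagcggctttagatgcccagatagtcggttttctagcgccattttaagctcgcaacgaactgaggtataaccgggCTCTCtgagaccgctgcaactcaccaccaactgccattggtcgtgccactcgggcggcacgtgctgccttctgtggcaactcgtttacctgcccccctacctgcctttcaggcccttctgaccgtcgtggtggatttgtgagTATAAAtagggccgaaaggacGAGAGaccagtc
amos (2L:18596922-18597171, minus strand): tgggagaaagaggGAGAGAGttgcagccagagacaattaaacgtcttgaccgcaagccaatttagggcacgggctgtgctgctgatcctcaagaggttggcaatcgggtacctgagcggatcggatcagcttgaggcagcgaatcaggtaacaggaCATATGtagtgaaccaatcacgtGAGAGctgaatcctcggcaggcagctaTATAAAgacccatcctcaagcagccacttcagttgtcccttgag
tap (3L:17359432-17359681, plus strand): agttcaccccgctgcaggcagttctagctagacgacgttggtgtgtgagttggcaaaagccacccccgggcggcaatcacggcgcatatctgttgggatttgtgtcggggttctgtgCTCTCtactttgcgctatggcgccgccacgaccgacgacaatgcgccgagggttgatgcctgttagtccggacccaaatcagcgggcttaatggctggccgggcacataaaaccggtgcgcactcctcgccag

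The ac promoter held a CAGCTG beginning 197 bases before the 5′ end, a CAGGTG at 61 bases and a TATAAA at 34 bases. TATAAA stood at 33 bases before the ato 5′ end and at 44 bases before the amos 5′ end, and amos had a CATATG at 94 bases. The sc promoter had 11 matches to GAGAG, many of them overlapping within GA repeats. These letters are common. Over 13921 promoters of 300 bases (250 before and 50 after the 5′ end), CAGCTG occurred in 17.7%, CAGGTG in 9.33%, CATATG in 7.82%, TATAAA in 45.8% and GAGAG in 29.8%. GAGAG was present in the 300 bases of 6 of the 7 members, ase being the exception, TATAAA in 3 (ac, ato and amos), CAGGTG in 2 (ac and ase) and CAGCTG and CATATG in 1 each. CGATA, a core of the motif bound by the border factor BEAF-32, was present in 1 member promoter (ato) and in 47.4% of all promoters. Such matches describe letters only and are not evidence of binding.

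The achaete-scute complex was divided between TADs differently in the maps. In BG3 cells, ac, sc and l(1)sc shared a TAD at X:334446-427523 (93.08 kb) and ase lay in the next TAD, X:427524-530118 (102.6 kb). In Kc167 cells all 4 genes lay in 1 TAD, X:308459-476709 (168.3 kb). The Kc167 TAD was wider than the TADs that hold 91.7% of protein-coding genes in that map, while the BG3 TADs were wider than those of 69.2% (ac, sc and l(1)sc) and 74% (ase). The stringent TAD list, in which the authors asked for a larger difference in contacts at a border, gave the same division, with a BG3 TAD of 148.7 kb for ac, sc and l(1)sc and one of 228.2 kb for ase, against 1 Kc167 TAD of 185.3 kb for all 4. The widths stood out less there. The Kc167 TAD was wider than the stringent TADs of 59.4% of genes, and the BG3 ones than those of 29.4% (ac, sc and l(1)sc) and 47.7% (ase).

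The BG3 border that separates l(1)sc from ase was at X:427523, 17.8 kb beyond the l(1)sc 5′ end and 33.2 kb before the ase 5′ end, in an intron of CG32816. It was present in the stringent BG3 list. The nearest Kc167 border was 49.2 kb away, so that this border was specific to BG3 by the study's distance rule (no Kc167 border within 2 kb). Its TAD separation score, a measure of contacts across a position that is lower where fewer contacts cross, was -0.199, and 13.3% of BG3 borders had a lower one. The Kc167 TAD ended instead at X:476709, 16 kb beyond the ase 5′ end and 130 bp from the 5′ end of ebo, a gene named for its mutant ellipsoid body in the brain. The score there was -0.338, with 4.79% of Kc167 borders lower, although this border was not in the stringent Kc167 list, where the TAD ran on to X:493764. Scores were read within 1 map only, since their scale can differ between maps.

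Sequence at the Kc167 border is shown because this border ends the TAD that holds all 4 genes in Kc167. It is read along the plus strand of dm6 X, with the DpnII site GATC in capitals, and the border coordinate here is the middle of a DpnII fragment.
Kc167 border right of ase (X:476650-476936): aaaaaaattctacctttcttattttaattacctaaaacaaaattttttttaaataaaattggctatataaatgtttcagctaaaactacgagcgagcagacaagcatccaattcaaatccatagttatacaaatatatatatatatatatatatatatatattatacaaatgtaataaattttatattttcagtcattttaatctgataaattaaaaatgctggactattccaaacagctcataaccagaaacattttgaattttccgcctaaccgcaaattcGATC

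The border base is number 60 of the printed stretch, on a fragment of 449 bp. In the 120 bases centred on the border, 74.2% of bases were A or T, against a median of 60% over all Kc167 borders, and 90.5% of those borders had a lower share. The 1000 bases centred on the border held CGATA 5 times, counted on both strands, and 48.6% of all Kc167 borders held it more than 1 time in such a stretch. The share of borders with as many as 5 is not given here, so these values do not show whether 5 is usual. GAGAG was found there 1 time, and at least 1 time at 67.8% of Kc167 borders.

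Besides the proneural genes, the TADs held other genes with different neighbours in each map. The BG3 TAD of ac, sc and l(1)sc held 6 protein-coding 5′ ends, the others being CG43181, CG43182 and y (yellow, needed for black pigment). The BG3 TAD of ase held 15, among them Cyp4g1, a cytochrome P450 of hydrocarbon synthesis, svr, a carboxypeptidase, arg (arginase) and elav, a neuronal RNA-binding protein. The Kc167 TAD held 12, from the odorant receptor gene Or1a through y, ac, sc, l(1)sc, Pgcl, ase and Cyp4g1 to ebo, and left svr, arg and elav outside. The right end of the BG3 TAD of ase, X:530118, was also a border in Kc167, 173 bp from the 5′ end of CG4293. The left ends, X:334445 in BG3 and X:308458 in Kc167, were 26 kb apart, and each was specific to its map. The 5′ end nearest to the BG3 one was that of CG43181, 16121 bp away, and the 5′ end nearest to the Kc167 one was that of CG12470, 774 bp away.

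**Figure D1:**
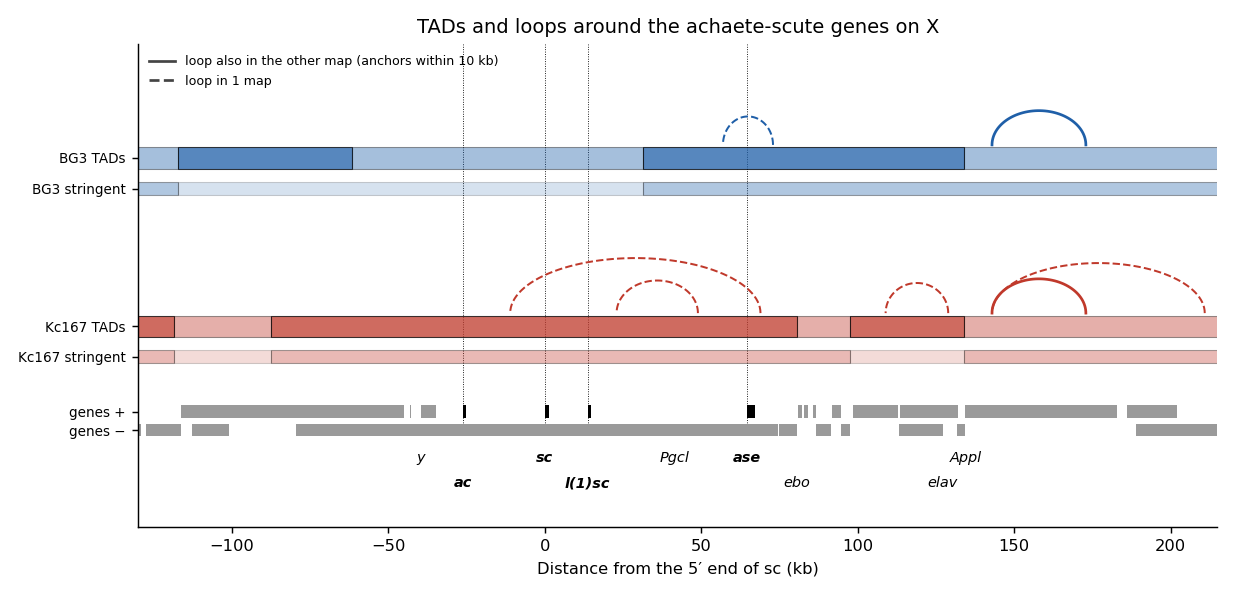
TADs (upper bars), stringent TADs (thin bars) and loops (arcs) of BG3 in blue and Kc167 in red over the achaete-scute genes, against distance from the sc 5′ end in kb. Neighbouring TADs differ in shade, black boxes and bold names are proneural genes, and grey boxes are other protein-coding genes on the plus and minus strands. In BG3 a border 17.8 kb beyond l(1)sc parts ase from the other 3 genes, and in Kc167 2 dashed arcs run over that position inside 1 TAD of 168.3 kb.

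Genes at such a distance often lie in different TADs. Among 37177 pairs of protein-coding 5′ ends that were within 10 kb of the 51 kb between l(1)sc and ase, 71.3% lay in different TADs in BG3 and 79.7% in Kc167, so that sharing 1 TAD, as l(1)sc and ase did in Kc167, was the less common state. The l(1)sc-ase pattern, apart in BG3 and together in Kc167, was found in 8.23% of those pairs, and in 5.98% of the 4496 on X. The opposite pattern was found in 16.6% of all pairs and 31.5% of those on X. For the 90.7 kb between ac and ase, the pattern apart in BG3 and together in Kc167 was found in 4.96% of pairs, and in 3.19% on X. On X, pairs at the l(1)sc-ase distance were apart in 55.5% of cases in BG3 and 81.1% in Kc167. The neighbours ac and sc (26 kb) and sc and l(1)sc (13.7 kb) shared a TAD in both maps.

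Loops differed at this locus too. The loops below are given by their observed contacts, with an exact 95% Poisson interval that covers counting error only, and by the ratio to the contacts expected from the donut-shaped neighbourhood of the pixel. An anchor is named after a 5′ end that lay in its 2 kb bin or within 1 kb of it. The 2 BG3 loops had 37 contacts (26.1 to 51, 17.9 expected, ratio 2.07) between X:452001-454000 and X:468001-470000, and 19 contacts (11.4 to 29.7, 3.27 expected, ratio 5.81) between X:538001-540000 and X:568001-570000. The loop with 37 contacts ran over ase in its 16 kb and ended at the 5′ ends of Cyp4g1 and CG32816, and neither anchor held the ase 5′ end, which was 6747 bp away. The loop with 19 contacts joined 2 positions in Appl, the fly homologue of the amyloid precursor protein, and was listed at the same pixel in Kc167 with 70 contacts (54.6 to 88.4, 16.6 expected, ratio 4.22).

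Of the 5 Kc167 loops at the locus, 2 ran over the position of the BG3 border between l(1)sc and ase. One joined X:384001-386000, between ac and sc, with X:464001-466000, beginning 825 bp beyond the 3′ end of ase, over 80 kb, with 40 contacts (28.6 to 54.5, ratio 2.64). The other joined X:418001-420000 with X:444001-446000 over 26 kb, with 30 contacts (20.2 to 42.8, ratio 3.97). Both lay within the 1 Kc167 TAD and neither was listed in BG3. Of the 894 Kc167 loops on the main arms that lay inside 1 Kc167 TAD, 112 (12.5%) ran over at least 1 BG3 border. The ase 5′ end was 3254 bp from the anchor of the 80 kb loop, and the l(1)sc 5′ end 8280 bp from that of the 26 kb loop, so that no achaete-scute 5′ end lay in or within 1 kb of an anchor in either map. The remaining Kc167 loops were the Appl loop, one from svr to the 5′ end of elav (20 kb, 47 contacts) and one from Appl to spdi (68 kb, 81 contacts).

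Listed X loops were fewer and had fewer contacts in BG3 than in Kc167, and these values stand beside the achaete-scute results. Coverage of X as a whole was not measured. A median of 30.5 contacts was observed per X loop in BG3 and of 58 in Kc167, and on the autosomes of 54 in BG3 and 65 in Kc167. The lists held 3.908 X loops per Mb in BG3 and 12.02 in Kc167, and autosomal loops numbered 6.988 per Mb in BG3 and 10.2 in Kc167. Males have 1 X chromosome, and the study set the sex chromosomes aside in its own analyses. The part of X dosage or depth in which loops were listed in BG3 was not tested.

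The ato domain was nearly the same in both maps. The ato TAD was at 3R:8233383-8306750 in BG3 (73.37 kb) and at 3R:8232280-8306750 in Kc167 (74.47 kb), and the maps shared 98.5% of the joint span, a share that was lower for 89.6% of genes. Its right border, 28.7 kb from the ato 5′ end, had the same coordinate in both, 1476 bp from the 5′ end of Sgt1, which encodes a co-chaperone. Few borders had a lower separation score than this one, 1.07% in BG3 (score -0.4) and 0.958% in Kc167 (score -0.461). It was in the stringent list of Kc167 and not in that of BG3, where the stringent TAD of ato was 317.2 kb wide, against 205.9 kb in Kc167. The left border lay 125 bp from the 5′ end of PolI, which encodes the repair enzyme DNA polymerase iota, in BG3 and 1228 bp from it in Kc167. The TAD held the same 19 protein-coding 5′ ends in both.

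The ato 5′ end lay in a loop anchor in both maps. The loop ran 18 kb from the bin of the ato gene (3R:8278001-8280000) to a bin in CG9626 (3R:8296001-8298000), inside the ato TAD, at the same pixel in both. It had 101 contacts in BG3 (82.3 to 123) and 193 in Kc167 (167 to 222), over 47.3 expected in BG3 and 91.7 in Kc167. The ratios were 2.13 in BG3 (1.74 to 2.59) and 2.1 in Kc167 (1.82 to 2.42), and the intervals overlapped over most of their length. These ratios were low among loops, with 18.5% of BG3 loops and 22.7% of Kc167 loops lower. Only 14.8% of BG3 loops and 9.08% of Kc167 loops were listed at an identical pixel in the other map. A 5′ end in a loop anchor of both maps was found for 0.861% of all genes.

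Around ato, BG3 also had a loop of 16 kb with 102 contacts from the 5′ ends of Coq2 and the copper transporter gene Ctr1B to that of Poxm, a paired-box gene of muscle. It was not listed in Kc167. A loop with its right anchor in CG45263 was listed in both, with 56 contacts over 20 kb in BG3 and 80 over 24 kb in Kc167, its left anchor shifted by 4 kb.

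The amos domain was narrow and was also nearly the same in both maps. It was at 2L:18582800-18612587 in BG3 (29.79 kb) and at 2L:18582800-18613858 in Kc167 (31.06 kb), with 95.9% of the joint span shared. A narrower TAD held 14.4% of genes in BG3 and 25.6% in Kc167. The left border, 14.1 kb from the amos 5′ end, had the same coordinate in both maps, in an intron of Pde11, a phosphodiesterase gene, and was in both stringent lists. The right border moved by 1271 bp and lay 338 bp from the 5′ end of Atac2, a histone acetyltransferase gene, in BG3 and 1609 bp from it in Kc167. In the stringent lists the amos TAD was 276.7 kb wide in BG3 and 31.06 kb wide in Kc167, because the right border was not in the stringent list of BG3.

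In Kc167, amos lay at the end of a long loop. It ran 146 kb from 2L:18450001-18452000, in bsf, a gene for a mitochondrial RNA-binding protein, to 2L:18596001-18598000, the bin with the amos 5′ end. It had 28 contacts (18.6 to 40.5) over 6.87 expected, a ratio of 4.08 (2.71 to 5.89), crossed 4 Kc167 borders and was not listed in BG3. The BG3 list had no loop with an anchor at amos. A loop from the 5′ end of MESR3 was listed in both maps, with 33 contacts over 30 kb in BG3 (22.7 to 46.3) and 50 over 34 kb in Kc167 (37.1 to 65.9), in the TAD to the right of amos.

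The tap domain was wider in BG3. The TAD was at 3L:17338903-17475060 in BG3 (136.2 kb) and at 3L:17353618-17421421 in Kc167 (67.8 kb), and the Kc167 TAD lay wholly within the BG3 one. It held 22 protein-coding 5′ ends in BG3 and 4 in Kc167, which were tap, the cadherin gene Cad74A, CG13728 and CG13731. The tap 5′ end was 20.8 kb from the nearest border in BG3 and 6.07 kb in Kc167. The left BG3 border was 360 bp from the CG6479 5′ end and was a border at the same coordinate in Kc167 as well, so that Kc167 had additional borders at 3L:17353617, 1795 bp from the 5′ end of CG7692, and at 3L:17421421, 93 bp from that of blot, a transporter-like gene. Both additional borders were weak, in the sense that neither was in the stringent Kc167 list, and their scores were -0.0655 (44.1% of borders lower) and -0.0937 (39% lower). In the stringent lists the order was turned round, with tap in a BG3 TAD of 189.3 kb and a Kc167 TAD of 354.7 kb.

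**Figure D2:**
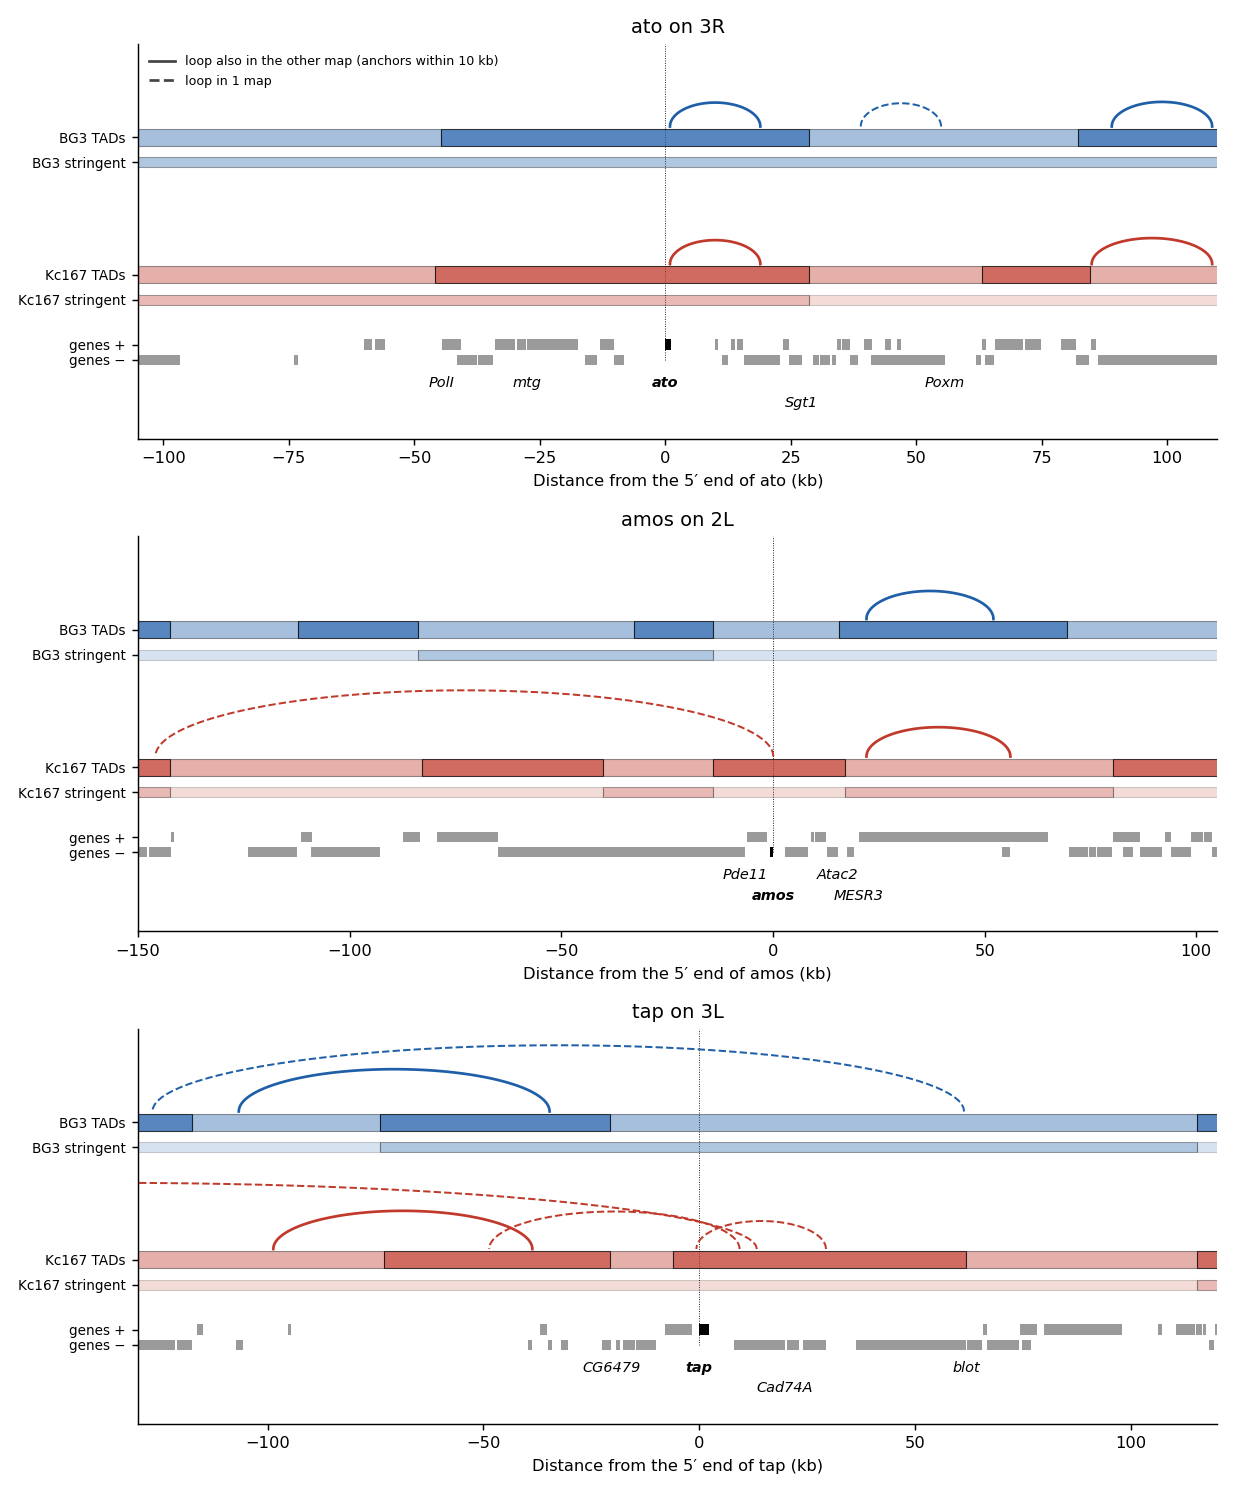
TADs (upper bars), stringent TADs (thin bars) and loops (arcs) of BG3 in blue and Kc167 in red around ato, amos and tap, against distance from the 5′ end of each gene in kb. Neighbouring TADs differ in shade, and black and grey boxes are proneural and other protein-coding genes. The bars that hold ato and amos nearly match between the maps, the tap bar is 136.2 kb wide in BG3 and 67.8 kb in Kc167, and arcs begin at ato in both maps and at amos and tap in Kc167.

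In Kc167 the tap 5′ end was joined by a loop of 30 kb to the 5′ end of CG13731, between 3L:17358001-17360000 and 3L:17388001-17390000. It had 97 contacts (78.7 to 118) over 50.4 expected, a ratio of 1.92 (1.56 to 2.35), and 9.58% of Kc167 loops had a lower ratio. It lay inside the Kc167 tap TAD and was not listed in BG3. Each map had a long loop from Rbp6, an RNA-binding protein gene, into the tap neighbourhood, and the 2 loops differed at both ends. The anchor in Rbp6 was at 3L:17232001-17234000 in BG3 and at 3L:17070001-17072000 in Kc167. The BG3 loop ran 188 kb to the 5′ end of blot with 15 contacts (8.4 to 24.7). The Kc167 loop ran 302 kb to Cad74A with 24 contacts (15.4 to 35.7). Left of tap, a loop of 72 kb with 31 contacts in BG3 was matched by one of 60 kb with 41 contacts in Kc167, whose anchors were shifted by 8 and 4 kb. Kc167 also had a loop of 58 kb with 55 contacts that ended in Cad74A, 8319 bp from tap.

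Across the members, none of the 7 5′ ends lay within 2 kb of a border in either map, where 16.9% of all protein-coding 5′ ends did in BG3 and 19.9% in Kc167. The distance to the nearest border was 35.6 kb in BG3 and 61.6 kb in Kc167 for ac, 31.5 kb in BG3 and 80.6 kb in Kc167 for sc, and 17.8 kb in BG3 and 67 kb in Kc167 for l(1)sc. It was 33.2 kb in BG3 and 16 kb in Kc167 for ase, and 20.8 kb in BG3 and 6.07 kb in Kc167 for tap. In both maps it was 28.7 kb for ato and 14.1 kb for amos. The median over the members was 28.7 kb in each map, against 11.75 kb in BG3 and 9.146 kb in Kc167 over all genes. Only tap in Kc167 was nearer to a border than the median gene of the same map. The 4 achaete-scute values are not independent of each other, since the genes share borders.

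**Figure D3:**
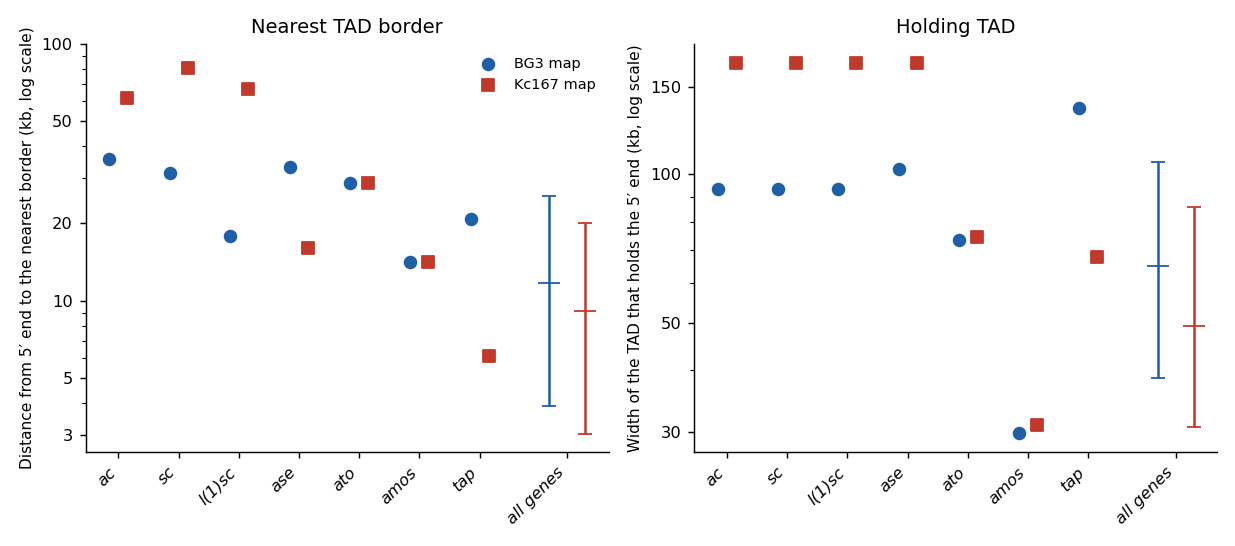
Distance from each 5′ end to the nearest TAD border (left) and width of the TAD that holds it (right), in kb on log axes, with BG3 as blue circles and Kc167 as red squares. The bars at the right of each panel are the median and quartiles over all 13945 genes (11.75 kb in BG3 and 9.146 kb in Kc167 for distance). The achaete-scute genes have the widest Kc167 TAD of the set (168.3 kb), and ato and amos are at the same distance in both maps.

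In BG3, 1 of the 7 members (ato) had its 5′ end within 1 kb of a loop anchor, where 6.27% of all genes did. In Kc167, 3 members (ato, amos and tap) had it there, where 8.56% of all genes did. All of these 5′ ends lay in the anchor bin itself, as did those of 3.12% of genes in BG3 and 3.97% in Kc167. The members at Kc167 anchors were the 3 taken here from the atonal family, of which only ato was at one in BG3. None was of the achaete-scute complex in either map. In Kc167, ase joined them when the limit was 5 kb or the gene body was counted. With 7 genes in 4 loci, these counts are small, and a count of 1 in BG3 and 3 in Kc167 rests on 2 genes. Of the 19 related bHLH genes treated below, 0 lay within 1 kb of an anchor in BG3 and 4 (21.1%) did in Kc167. Among those at no anchor in either map were cato, dimm and Oli.

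The windows held 14 borders in BG3 (1.56 per 100 kb, against 1.68 over all arms) and 18 in Kc167 (2.01, against 1.88). Of these, 4 were conserved, at the same position within 20 bp, which is 28.6% of the BG3 borders (Wilson 95% interval 11.7 to 54.6) and 22.2% of the Kc167 borders (9 to 45.2). Over all arms the shares were 27.7% in BG3 and 24.8% in Kc167. A further 5 were fuzzy, within 2 kb, and 5 were specific in BG3 (35.7%, against 46.8% over all arms) and 9 in Kc167 (50%, against 52.2%). BG3 had 8 loops with an anchor in the windows and Kc167 had 13, and 5 of them were shared, with both anchors within 10 kb. That is 62.5% of the BG3 loops (30.6 to 86.3) and 38.5% of the Kc167 loops (17.7 to 64.5), against 38.4% of BG3 loops and 23.5% of Kc167 loops over all arms. The intervals of these shares include the shares of all arms in each case, and cover counting error only. They treat the borders and loops of a locus as independent of each other, which they need not be, so this is not a test. Some shared loops were above the alternative q limit of 0.01. The largest q-value of the MESR3 loop was 0.0113 in BG3 and 0.0489 in Kc167, and that of the shared loop left of tap was 0.0333 in BG3.

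**Figure D4:**
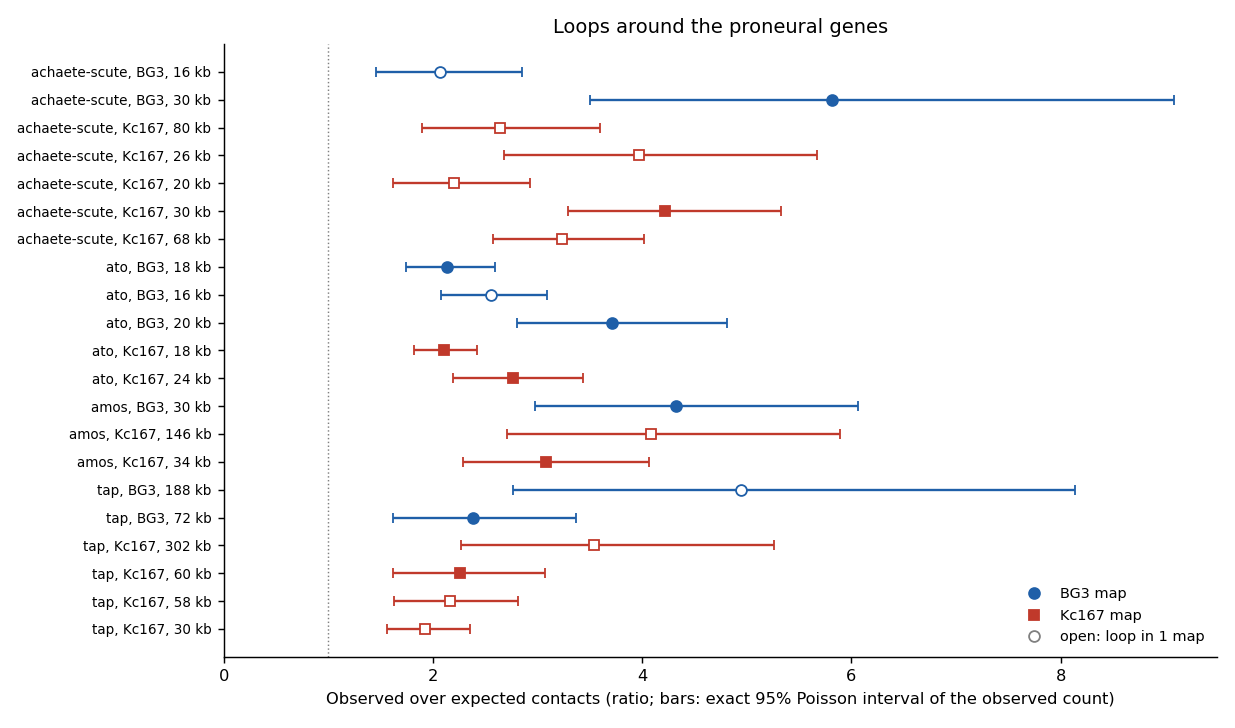
Observed over expected contacts (x axis, ratio) of the 8 BG3 loops (blue circles) and 13 Kc167 loops (red squares) with an anchor within 100 kb of a proneural gene, by locus and loop length. Bars are exact 95% Poisson intervals of the observed count, filled symbols are loops listed in both maps and the dotted line is a ratio of 1. The ato loop of 18 kb sits at 2.13 in BG3 and 2.1 in Kc167, and the widest bars belong to BG3 loops with few contacts.

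Among 28 genes listed as acting upstream of, with or downstream of the proneural factors, 6 (21.4%) began within 2 kb of a border in BG3 and 7 (25%) did in Kc167, against 16.9% of all genes in BG3 and 19.9% in Kc167. Those nearest in BG3 were Egfr (111 bp), rho (228 bp), N (521 bp), emc (537 bp), ey (1024 bp) and gro (1735 bp). In Kc167, emc was at 61 bp, Egfr at 111 bp, neur at 180 bp, N at 521 bp, gro at 559 bp and mirr at 846 bp. Of these, emc encodes an HLH protein without a basic region that sequesters proneural factors, N the Notch receptor, neur the ubiquitin ligase of its ligands and gro the co-repressor of the Enhancer of split proteins. The distance of rho, which activates EGF receptor ligands, was 228 bp in BG3 and 19.9 kb in Kc167, and that of neur was 25.4 kb in BG3 and 180 bp in Kc167. The Iroquois gene mirr, a member of the family that activates ac and sc in the wing disc, was 39.8 kb from a border in BG3 and 846 bp in Kc167. Within 1 kb of a loop anchor lay 5 of the 28 in BG3 (17.9%, against 6.27% of all genes) and 3 in Kc167 (10.7%, against 8.56%). They were gro, E(spl)mgamma-HLH, E(spl)m8-HLH, the neuroblast gene dpn and rho in BG3, and emc, ara and dac in Kc167. In BG3, gro, E(spl)mgamma-HLH and E(spl)m8-HLH lie in 1 TAD of 50.39 kb, so that 3 of the 5 are not independent of each other.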

How the data were processed

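Hi-C reads of BG3 and Kc167 cells (2 replicates each, grouped by the line in the labels) were processed by the authors with BWA 0.7.15-r1140, Juicer 1.7.6, HiCExplorer and HiCCUPS on dm6, and the replicates were merged. The deposited TAD lists give positions and a separation score. The deposited loop lists give observed contact counts and counts of merged pixels, expected contacts as a signal (the donut neighbourhood was used), and 4 q-values per loop, all as the authors computed them.

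Gene positions came from Ensembl 115 and sequence from RefSeq, both on dm6, with arm lengths checked. A border is a TAD end. Its score is that of the TAD to its right, since TADs with the same left end carried the same score. Distances run from the 5′ end. The proneural genes and the gene lists (28 of 30 and 19 of 19 symbols matched) were chosen with earlier results of these data known. Named genes were the members, the genes nearest to the borders of their TADs, those at loop anchors, list genes within 2 kb of a border or at an anchor (at most 6 per list and map) and the 2 genes most like each member. Some other genes of the achaete-scute TADs (such as y, Or1a and Pgcl) are named as neighbours, chosen after their positions were seen. Python 3.11.15, NumPy 2.4.6, SciPy 1.17.1 and Matplotlib 3.10.9 were used. The functions for border distances, holding TADs, loop anchors and shared loops were tested on simulated data, and those for the confidence intervals were not. No test was run, since each line has 1 map. Total contacts per map are not given in the lists, where depth shows only in the contacts at loops. The paper's methods give filtered reads per replicate, which were fewer in BG3 than in Kc167. Alternatives were the distance limits, window widths, the stringent list, gene bodies and a q-value limit of 0.01.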

Additional observations from a re-analysis of the deposited data

How the results depend on the processing

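Of 55 alternative values, 27 remained close to the one reported and 28 moved. With windows of 50 kb, borders numbered 8 in BG3 and 9 in Kc167, and BG3 loops 5. With windows of 200 kb, borders numbered 30 in BG3 and 32 in Kc167, Kc167 loops 22, and BG3 borders at a Kc167 border 8. The stringent list left 5 borders in BG3 and 9 in Kc167. Counting BG3 borders within 2 kb or 10 kb of a Kc167 border gave 9 and 11. Loops with both anchors in a window numbered 4 in BG3 and 8 in Kc167, and those with every q at most 0.01 numbered 5 in BG3. The BG3 loop over ase was not among these 5. With an anchor limit of 5 kb or with gene bodies, 4 members were at Kc167 anchors, the added one being ase. With a limit of 10 kb, 1 member (tap) lay near a Kc167 border. Stringent TADs were 148.7 kb in BG3 and 185.3 kb in Kc167 for ac, sc and l(1)sc, 228.2 kb in BG3 and 185.3 kb in Kc167 for ase, 317.2 kb in BG3 and 205.9 kb in Kc167 for ato, and 189.3 kb in BG3 and 354.7 kb in Kc167 for tap. That of amos was 276.7 kb in BG3. The number of TADs over the achaete-scute genes was 2 in BG3 and 1 in Kc167 in both lists.

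No paired analysis was possible because the replicates were merged before TADs and loops were called, and leaving out a replicate was not possible for the same reason. Loops with few contacts, such as the 15 of the BG3 loop from Rbp6 to blot, are the least precise. A loop missing from one list can have gone undetected at that map's depth, which was not tested. Listed X loops had a median of 30.5 contacts in BG3 and of 58 in Kc167. The borders in these windows lay on DpnII fragments of 58 to 3082 bp, and a border is placed no more finely than the bin of its map. Most stood at the middle of their fragment. The borders on the fragments of 58 and 3082 bp stood 13 and 1413 bp from the middle, so the bin there was not that fragment.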

Other observations

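Among 19 related bHLH genes outside the proneural set, 2 (10.5%) began within 2 kb of a border in BG3 and 4 (21.1%) did in Kc167, against 16.9% of all genes in BG3 and 19.9% in Kc167. The crp gene was at 701 bp and da, the common partner of the proneural factors, at 1669 bp in both maps. In Kc167, sim, the master gene of the ventral midline, was at 1442 bp and Fer2 at 1616 bp. Of the 19, 0 lay within 1 kb of a loop anchor in BG3, where 6.27% of all genes did, and 4 (21.1%) did in Kc167, where 8.56% of all genes did. The 4 were nau, the fly MyoD, sim, ss and tgo.

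The genes most like each member in border distance and TAD width over both maps (Euclidean distance over 4 log10 values, 13794 genes compared) were close for the stable domains and farther off for the others. For ato they were exp (0.0181) and CG31861 (0.0202), and for amos ninaG (0.0163) and DEF8 (0.0165). For ac they were Gem3 (0.0897) and ths (0.0904), for sc Tollo (0.0773) and trn (0.0943), and for l(1)sc CG43237 (0.0776) and CG33278 (0.107). For ase they were CG42749 (0.103) and CG11892 (0.104), and for tap CG13157 (0.114) and rdgC (0.129).

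The border to the right of ato had one of the lowest separation scores of the BG3 map and was not in its stringent list. Of the 45 BG3 borders in the lowest 2% of scores, 33 (73.3%) were in the stringent list, as were 42 (84%) of the 50 in Kc167. Over all scored borders the shares were 43.5% in BG3 and 51.9% in Kc167.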
